A study of Mus musculus with 16 samples.

Results

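The machinery that folds secretory proteins in the endoplasmic reticulum (ER), and clears those that fail, was examined in mouse colon goblet cells labelled as lacking the transcription factor Spdef and in wild-type ones. The module was taken by gene symbol from a list of disulfide isomerases, oxidases, chaperones, prolyl isomerases and degradation factors. All 42 listed genes were found among the 21442 genes of the count table, and all 42 were among the 12915 genes that passed the filter on low counts and were tested. By role, the list holds 11 disulfide isomerases, 3 oxidases, 3 genes of the lectin chaperone cycle, 8 heat shock proteins and co-chaperones, 3 stress-inducible cofactors, 4 prolyl isomerases and 10 factors of ER-associated degradation (ERAD).

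Proteins bound for secretion enter the ER unfolded, where chaperones hold them, disulfide isomerases form and shuffle their cysteine bonds, and oxidases recharge the isomerases. Proteins that stay misfolded are marked by trimming of their sugar chains, passed through a channel around an E3 ubiquitin ligase and degraded in the cytosol. Goblet cells secrete the gel-forming mucin Muc2, a very large, cysteine-rich glycoprotein that folds in this compartment. The unfolded protein response adjusts the amount of this machinery to the load.

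RNA was sequenced from cells of the distal colon of mice 6–8 weeks old. All mice carried the transgene RedMUC298trTg, which marks goblet cells with the red fluorescent protein mCherry, and live cells were sorted by the presence (GC, goblet cells) or absence (EC, labelled as colonocytes) of that signal. The 4 groups were SpdefKO_GC and WT_GC, which are goblet cells of reporter mice with and without the SpdefKO allele, and SpdefKO_EC and WT_EC, which are the remaining epithelial cells of the same 2 kinds of mice. Each group held 4 libraries, called here by the numbers in their labels. The labels give neither the cells in which Spdef was deleted nor whether each library of a group is another mouse. Each goblet cell library has a neighbour in number among the remaining cells of its genotype (3 and 4, 5 and 6, 7 and 8, 19 and 20 in SpdefKO, and 9 and 10, 11 and 12, 13 and 14, 18 and 17 in WT), and the labels do not say whether neighbours came from 1 mouse. The p-values therefore reflect how far the libraries at hand scatter, and that scatter may be technical. RNA of goblet cells was purified on another kind of column than RNA of the remaining cells, so that column and cell fraction cannot be told apart.

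Libraries held 10085637–17111987 gene counts. The goblet cell labels fit the defining markers, since 8 of 8 goblet markers were higher in WT_GC than in WT_EC, with summed levels of 43110–49248 CPM in WT_GC and 307–384 CPM in WT_EC. CPM are counts per mega-count of library size after TMM scaling. Spdef lies on chromosome 17 at 27714352–27728955 (GRCm38, minus strand), and no member lies on that chromosome. Spdef had 368, 373, 446 and 294 CPM in SpdefKO_GC libraries 3, 5, 7 and 19, against 280, 306, 281 and 315 CPM in WT_GC libraries 9, 11, 13 and 18, so that its counts were not reduced (log2 0.33 ± 0.14 SE, adjusted p = 0.116, edgeR). It was at 1.15–3.51 CPM in SpdefKO_EC and 1.82–3.77 CPM in WT_EC. Counts per gene do not show which exons were covered. The genotype rests on the labels, and SpdefKO_GC and SpdefKO_EC stand throughout for the libraries labelled so.

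Some members share promoter motifs of the unfolded protein response. Members were chosen by symbol and not by sequence. That response is known to act on this machinery, however, so the shares below are not independent of the choice. In the 300 bases from 250 before to 50 after the RefSeq start (GRCm38.p6), 3 motifs of the unfolded protein response were searched on both strands. These were the ER stress element ERSE, which is CCAAT, then 9 bases of any kind, then CCACG, the shorter ERSE-II, which is ATTGG, 1 base of any kind, then CCACG, and the core TGACGTG of the unfolded protein response element. A promoter was available for 36 members, and ERSE was present in 9 of them (25.0%). In comparison, 18 of 10245 tested genes with a promoter (0.176%) and 39 of all 32851 promoters (0.119%) held it. ERSE-II was present in 2 members (5.56%) and 0.078% of the tested genes, and the core TGACGTG in 3 members (8.33%) and 3.28% of the tested genes. The members with ERSE were Calr, Canx, Creld2, Derl3, Dnajc3, Ero1lb, Hsp90b1, Pdia6 and Syvn1, those with ERSE-II Dnajb11 and Herpud1, and those with the core TGACGTG Fkbp11, Txndc11 and Txndc5. Matches of different motifs did not overlap. A match is a description of the letters and not a shown binding site. No promoter was available for Derl1, Erp29, Hspa13, Hyou1, Manf and Sil1.

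The stretches around 6 of these matches are given below, chosen because Hsp90b1, Derl3 and Ero1lb are the ERSE members that passed the test between SpdefKO_GC and WT_GC, because Calr and Pdia6 are abundant chaperone and isomerase genes, and because Herpud1 carries the other form. Each is read 5′ to 3′ on the strand of its gene from RefSeq (GRCm38.p6), and capitals mark the whole motif in either orientation. Hsp90b1 (chr10:86705510-86705681, minus strand) holds 2 matches, with 193 and 88 bases between the motif and the start. Derl3 (chr10:75893217-75893285, plus strand), Ero1lb (chr13:12565657-12565725, plus strand), Calr (chr8:84847050-84847118, minus strand), Pdia6 (chr12:17266466-17266534, plus strand) and Herpud1 (chr8:94386352-94386412, plus strand) hold 1 each. Across the 10 ERSE matches of the members, 25–193 bases lay between the motif and the start, and 5 of the 10 ran in the direction of the gene.
Hsp90b1: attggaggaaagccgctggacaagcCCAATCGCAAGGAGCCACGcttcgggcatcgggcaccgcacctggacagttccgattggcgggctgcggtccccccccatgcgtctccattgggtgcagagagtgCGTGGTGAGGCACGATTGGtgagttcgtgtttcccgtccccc
Derl3: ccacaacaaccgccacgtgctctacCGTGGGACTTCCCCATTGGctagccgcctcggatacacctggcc
Ero1lb: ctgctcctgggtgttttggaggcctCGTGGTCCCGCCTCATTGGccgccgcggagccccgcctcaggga
Calr: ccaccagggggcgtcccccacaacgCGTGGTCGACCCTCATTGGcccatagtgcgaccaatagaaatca
Pdia6: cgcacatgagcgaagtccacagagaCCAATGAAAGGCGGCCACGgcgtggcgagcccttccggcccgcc
Herpud1: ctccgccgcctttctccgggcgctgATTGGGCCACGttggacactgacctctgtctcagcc

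The comparison of WT_GC with WT_EC shows the level of the machinery in wild-type goblet cells. The whole module took up 1.52–1.66% of gene counts in WT_GC libraries and 0.528–0.628% in WT_EC libraries. Of the 42 members, 39 rose in WT_GC, against 31.0% of all tested genes, and 27 of them were at least 2-fold higher, against 8.96% of all tested genes (edgeR's quasi-likelihood test, Benjamini-Hochberg adjusted p under 0.05). No member fell, also at an unadjusted p under 0.05 and with DESeq2 and limma-voom, while 30.1% of all tested genes fell. The median log2 change was 1.30 over the members and 0.05 over all tested genes. In 39 members every WT_GC library lay above every WT_EC library, as it did in 30.1% of all tested genes.

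The largest increase was that of Qsox1, a sulfhydryl oxidase of the late secretory pathway that makes disulfide bonds directly in its clients. Qsox1 had 474, 446, 522 and 478 CPM in WT_GC libraries 9, 11, 13 and 18, against 24.4, 19.7, 26.5 and 23.9 CPM in WT_EC libraries 10, 12, 14 and 17 (log2 4.34 ± 0.11 SE, 20.3-fold). The groups were far apart in every library. Fkbp11, a prolyl isomerase of secretory cells, averaged 32.4 ± 3.96 CPM in WT_GC and 1.78 ± 0.481 CPM in WT_EC (SD, n = 4 each; log2 4.17 ± 0.19 SE). Pdia5 and Txndc5 are disulfide isomerases, and Dnajc10 is a co-chaperone with thioredoxin domains that reduces wrong disulfides before degradation. Pdia5 averaged 177 ± 13.4 CPM in WT_GC and 17.9 ± 3.04 CPM in WT_EC (log2 3.30 ± 0.11). Txndc5 averaged 1090 ± 60.8 CPM in WT_GC and 127 ± 15.6 CPM in WT_EC (log2 3.10 ± 0.09), and Dnajc10 649 ± 40.0 CPM in WT_GC and 75.8 ± 7.20 CPM in WT_EC (log2 3.10 ± 0.10). The next increases were those of the disulfide isomerase Pdia6 (log2 2.05 ± 0.14), of Derl3, a membrane protein of the ERAD channel (2.04 ± 0.54), and of Herpud1, a stress-induced scaffold of the ubiquitin ligase complex (1.93 ± 0.13).

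The roles had different medians, with overlapping ranges. The median log2 change was 1.42 for the disulfide isomerases (10 of 11 rose), 1.26 for the lectin chaperones (3 of 3), 1.32 for heat shock proteins and co-chaperones (8 of 8), 1.65 for the cofactors (3 of 3), 1.02 for the prolyl isomerases (4 of 4) and 0.75 for ERAD (10 of 10). Changes ranged from 0.09 to 3.30 among the disulfide isomerases and from 0.30 to 2.04 among the ERAD factors. Of all tested genes 31.0% rose. These medians were not compared by a test. Among the oxidases 1 of 3 rose. Ero1l, the general oxidase of the isomerases, had 62.0, 57.3, 58.9 and 64.3 CPM in WT_GC libraries, against 57.1, 67, 59.4 and 60.5 CPM in WT_EC libraries. Its groups overlapped and the change was -0.01 ± 0.08 (adjusted p = 0.939, edgeR). Ero1lb, the second enzyme of this kind, was at 0.35 ± 0.16 (adjusted p = 0.0671), which passed under 3 of 7 alternative settings (adjusted p 0.0240–0.207 over these and the fits with 1 library left out). With libraries of neighbouring numbers as a block, a fit chosen after seeing the data, it passed (adjusted p = 0.00675, edgeR). Erp29, an ER protein with a thioredoxin-like fold but without the active site, was at 0.09 ± 0.08 (adjusted p = 0.338).

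**Figure D1:**
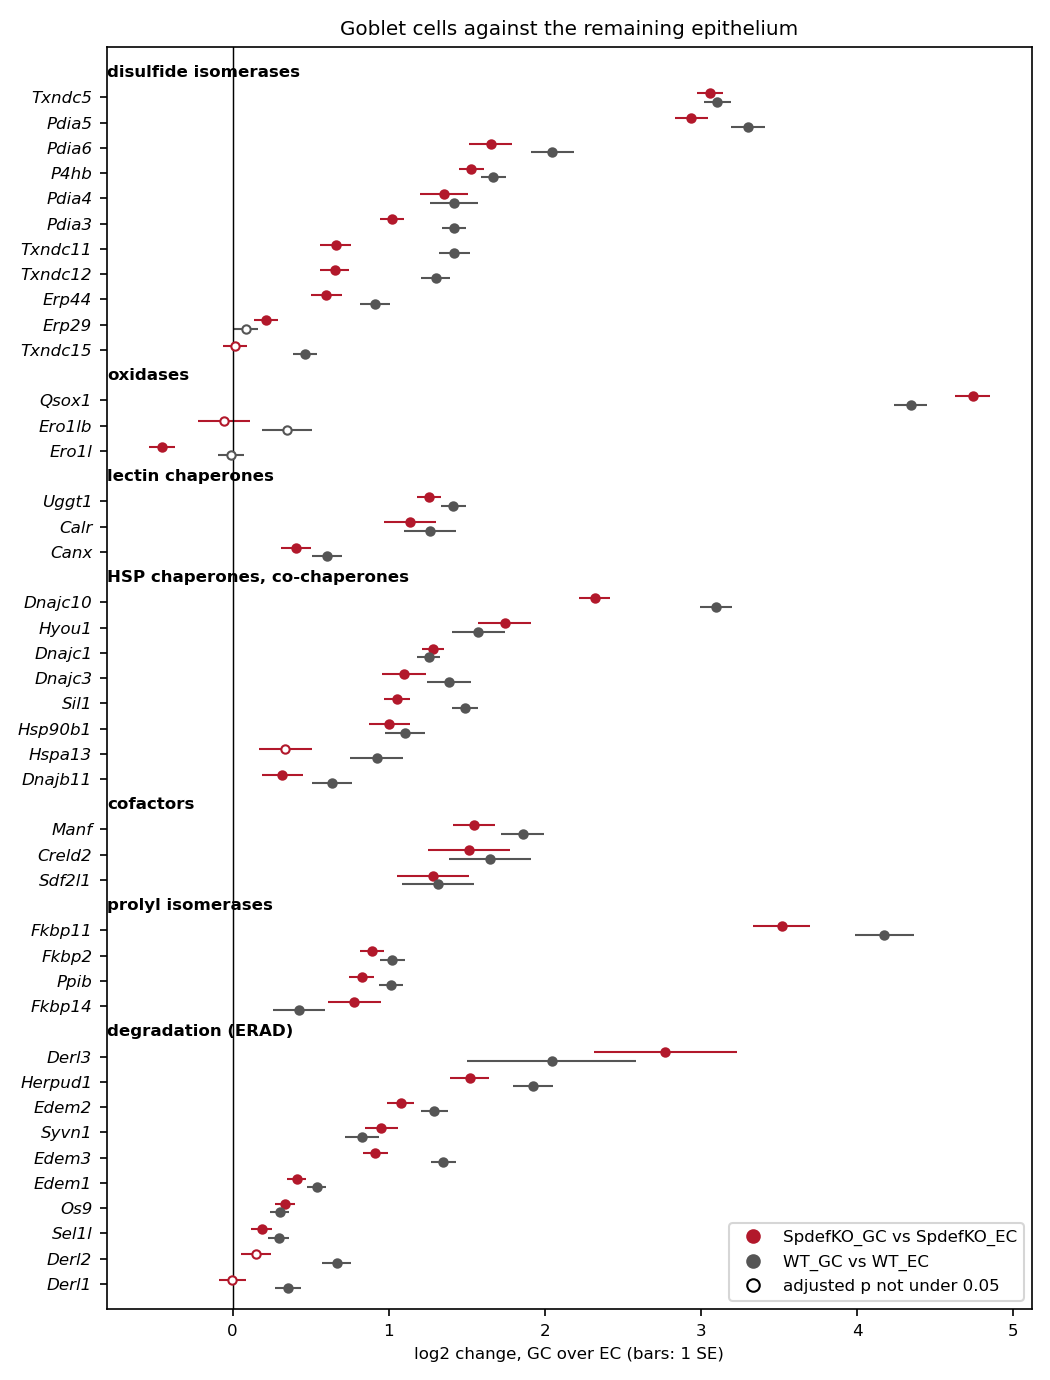
Log2 change of each member between goblet cells and the remaining epithelium (horizontal axis), in SpdefKO mice (red) and WT mice (grey), grouped by role; bars are 1 SE and open points did not pass the test. Qsox1 lies at 4.74 in SpdefKO and 4.34 in WT, and Ero1l is the member that fell in SpdefKO, at -0.45.

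Levels were set side by side between genes after division by length, here all annotated exons of a gene in kilobases. Which transcripts were expressed is not known, so the order is approximate. Tested genes overlap Hsp90b1, Ppib, Pdia3 and Fkbp14 on the opposite strand, so their positions are uncertain. In WT_GC the order by CPM per kb began with P4hb, the classical protein disulfide isomerase (622 ± 31.2, SD, n = 4), Hsp90b1, the ER form of HSP90 (587 ± 68.9), and Calr, the soluble lectin chaperone calreticulin (541 ± 78.7). The distances between these 3 were within their summed SDs. Ppib, the prolyl isomerase cyclophilin B (470 ± 22.7), Herpud1 (390 ± 64.4), Pdia3, the isomerase that works with the lectin chaperones (370 ± 23.7), and Txndc5 (325 ± 18.1) came next. The lowest were Fkbp14, a prolyl isomerase (2.02 ± 0.194), Ero1lb (1.67 ± 0.261) and Derl3 (0.800 ± 0.368). Qsox1 stood at position 12 of 42 in WT_GC and at position 36 in WT_EC, and Dnajc10 at position 11 in WT_GC and 25 in WT_EC. At the head of the order, Hsp90b1 came first in SpdefKO_GC (759 CPM per kb) and P4hb followed with 695, while in WT_EC Hsp90b1 (273), Ppib (233) and Calr (225) led.

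The comparison of SpdefKO_GC with WT_GC asks which members differed in goblet cells labelled as lacking Spdef. The module as a whole took up 1.78, 1.39, 1.78 and 1.54% of gene counts in SpdefKO_GC libraries 3, 5, 7 and 19, and 1.52–1.66% in WT_GC libraries, so the groups overlapped. Of the 42 members, 8 fell and 2 rose (4.76%), against 11% and 10.4% of all tested genes. The members that fell were the thioredoxin-domain proteins Txndc11, Txndc12 and Txndc15, the oxidase Ero1lb, the co-chaperones Sil1 and Dnajc10, and the ERAD factors Edem3 and Derl1. Those that rose were Hsp90b1 and Derl3. Without SpdefKO_GC library 5 or 19 or WT_GC library 18, 5 members fell. Without SpdefKO_GC library 3 or 7 or WT_GC library 11, 13 or 18 none rose, and without SpdefKO_GC library 19 it was 1. The median log2 change was -0.12 over the members and 0.00 over all tested genes. By estimate alone 27 members were lower, against 49.8% of all tested genes. The share of members called in either direction, 23.8%, was near the 21.4% of all tested genes. In bulk RNA, fewer cells of a type and less RNA per cell cannot be told apart.

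Among the disulfide isomerases 3 of 11 fell, against 11% of all tested genes. Txndc11 (chromosome 16 at 11074911–11134650, GRCm38, minus strand) is a thioredoxin-domain protein of the ER membrane. Txndc11 had 61.7, 55.6, 70.5 and 54.1 CPM in SpdefKO_GC libraries 3, 5, 7 and 19, against 114, 112, 96.5 and 107 CPM in WT_GC libraries 9, 11, 13 and 18. Each SpdefKO_GC library lay below each WT_GC library (log2 -0.83 ± 0.10, adjusted p = 8.95e-06, edgeR's quasi-likelihood test). The SpdefKO_GC level lay above the 30.8–41.2 CPM of SpdefKO_EC. Snn, another tested gene, overlaps Txndc11 on the opposite strand, and the strand setting of the counting is not given, so this value is uncertain. Txndc12 (chromosome 4 at 108834601–108862127, plus strand), a small luminal thioredoxin-like protein related to the mucin isomerase Agr2, had 44.3, 37.7, 46.1 and 40.9 CPM in SpdefKO_GC, against 66.5, 56.2, 67.1 and 60.5 CPM in WT_GC. These groups did not overlap either (log2 -0.57 ± 0.09, adjusted p = 2.46e-04, edgeR). Txndc12 shares its locus with Kti12 on the same strand, so reads of these genes may be hard to assign.

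Txndc15, a membrane-bound thioredoxin-domain protein, had 35.6, 34.7, 34.9 and 32.5 CPM in SpdefKO_GC, against 41.7, 46.1, 47.4 and 45.0 CPM in WT_GC (log2 -0.39 ± 0.08, adjusted p = 0.00139, edgeR). The groups did not overlap, and the SpdefKO_GC values lay in the range of the remaining epithelium, 32.7–35.3 CPM in SpdefKO_EC and 29.8–37.1 CPM in WT_EC. The abundant isomerases did not pass. P4hb had 2175, 1872, 2029 and 1879 CPM in SpdefKO_GC, against 1773, 1695, 1904 and 1743 CPM in WT_GC, with overlapping groups (log2 0.16 ± 0.08, adjusted p = 0.151, edgeR). Txndc5 averaged 1132 ± 78.1 CPM in SpdefKO_GC and 1090 ± 60.8 CPM in WT_GC (SD, n = 4 each; log2 0.06 ± 0.08, adjusted p = 0.666, edgeR). The other isomerases, Pdia3, Pdia4, Pdia5, Pdia6, Erp29 and Erp44, the last of which retrieves oxidases and unassembled clients from the Golgi, lay between -0.24 and 0.18 and did not pass.

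Of the oxidases, Ero1lb had 7.57, 5.42, 9.96 and 8.03 CPM in SpdefKO_GC, against 11.7, 9.09, 12.8 and 9.87 CPM in WT_GC (log2 -0.49 ± 0.16, adjusted p = 0.0369, edgeR). The groups overlapped through SpdefKO_GC library 7, and the call was lost without any 1 of SpdefKO_GC libraries 3, 5 and 19 or WT_GC libraries 9, 13 and 18, and in a fit of only these 2 groups (adjusted p = 0.0686, edgeR). Over all alternatives its adjusted p was 0.0131–0.127. Qsox1 had 405, 441, 388 and 405 CPM in SpdefKO_GC, against 474, 446, 522 and 478 CPM in WT_GC. Its groups did not overlap, although the change of -0.23 ± 0.09 did not pass (adjusted p = 0.0812, edgeR). Ero1l did not pass either (log2 -0.12 ± 0.08).

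No lectin chaperone passed. Calr averaged 1388 ± 278 CPM in SpdefKO_GC and 1181 ± 172 CPM in WT_GC (SD, n = 4 each; log2 0.23 ± 0.17, adjusted p = 0.347, edgeR). Canx, the membrane-bound lectin chaperone calnexin, was at 0.07 ± 0.10, and Uggt1, the enzyme that tags misfolded glycoproteins for another round of folding, at -0.02 ± 0.08. Adjusted p-values of both were over the threshold.

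Among the heat shock proteins and co-chaperones 1 of 8 rose and 2 fell, against 10.4% and 11% of all tested genes. Hsp90b1 (chromosome 10 at 86690209–86705509, minus strand) had 2286, 1666, 2336 and 2286 CPM in SpdefKO_GC, against 1928, 1540, 1495 and 1667 CPM in WT_GC (log2 0.37 ± 0.13, adjusted p = 0.0469, edgeR). Libraries 3, 7 and 19 lay above every WT_GC library and library 5 among them. A tested gene, 1810014B01Rik, overlaps Hsp90b1 on the opposite strand, so this value is uncertain as well. The call was lost under 3 of 7 alternative settings and without any 1 of SpdefKO_GC libraries 3, 7 and 19 or WT_GC libraries 11, 13 and 18 (adjusted p 0.00785–0.130 over all alternatives). Sil1, which makes the central chaperone BiP release its nucleotide, had 82.0, 78.0, 87.4 and 78.5 CPM in SpdefKO_GC, against 108, 96.2, 107 and 106 CPM in WT_GC. The groups did not overlap (log2 -0.36 ± 0.08, adjusted p = 0.00339, edgeR). Dnajc10 had 579, 453, 582 and 469 CPM in SpdefKO_GC, against 657, 595, 691 and 654 CPM in WT_GC, again without overlap (log2 -0.32 ± 0.09, adjusted p = 0.0214, edgeR). Without SpdefKO_GC library 5 or 19, or WT_GC library 13 or 18, the call of Dnajc10 was lost (adjusted p 0.0129–0.0901 over all alternatives).

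Hyou1, the large chaperone that also recharges BiP, Hspa13, an HSP70-like protein, and the J-domain co-chaperones Dnajb11, Dnajc3 and Dnajc1 did not pass, with log2 changes of -0.32 to 0.06. The cofactors Sdf2l1, Creld2 and Manf (-0.21 to 0.12) and the prolyl isomerases Fkbp2, Fkbp11, Fkbp14 and Ppib (-0.17 to 0.15) did not pass. The gene of BiP itself, Hspa5, is no member and was named after its values were seen. It averaged 2765 ± 505 CPM in SpdefKO_GC and 2788 ± 452 CPM in WT_GC (SD, n = 4 each; log2 -0.01 ± 0.13, adjusted p = 0.964, edgeR).

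Of the 10 ERAD factors 1 rose and 2 fell, against 10.4% and 11% of all tested genes. Derl3 (chromosome 10 at 75893413–75895941, plus strand) was the least abundant member, with 145 counts over the 4 SpdefKO_GC libraries and 63 over the 4 WT_GC libraries. Derl3 had 3.61, 1.32, 2.83 and 1.63 CPM in SpdefKO_GC, against 1.73, 0.948, 0.572 and 0.978 CPM in WT_GC (log2 1.17 ± 0.37, 2.24-fold, adjusted p = 0.0311, edgeR). The groups overlapped, and the call was lost without any 1 of SpdefKO_GC libraries 3 and 7 or WT_GC libraries 11, 13 and 18 (adjusted p 0.0129–0.123 over all alternatives). Edem3, a mannose-trimming enzyme that marks glycoproteins for degradation, had 254, 233, 306 and 265 CPM in SpdefKO_GC, against 332, 312, 324 and 342 CPM in WT_GC. The groups did not overlap (log2 -0.31 ± 0.08, adjusted p = 0.0105, edgeR). Derl1, a channel protein like Derl3, had 105, 83.9, 103 and 92.2 CPM in SpdefKO_GC, against 112, 111, 123 and 108 CPM in WT_GC. The groups did not overlap (log2 -0.24 ± 0.08, adjusted p = 0.0467, edgeR), but the call was lost under 4 of 7 alternative settings and in 7 of the 8 fits without 1 library of these groups, all but that without SpdefKO_GC library 3 (adjusted p 0.0391–0.172).

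The other members of this role were Sel1l and Syvn1, the adaptor and the ubiquitin ligase of the channel, Herpud1, Edem1 and Edem2, Derl2, and the lectin Os9. None of the 7 passed, with log2 changes of -0.24 to 0.08. Herpud1 was the steadiest member in SpdefKO_GC, with 617, 644, 646 and 663 CPM, and varied more in WT_GC, with 864, 767, 582 and 829 CPM.

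**Figure D2:**
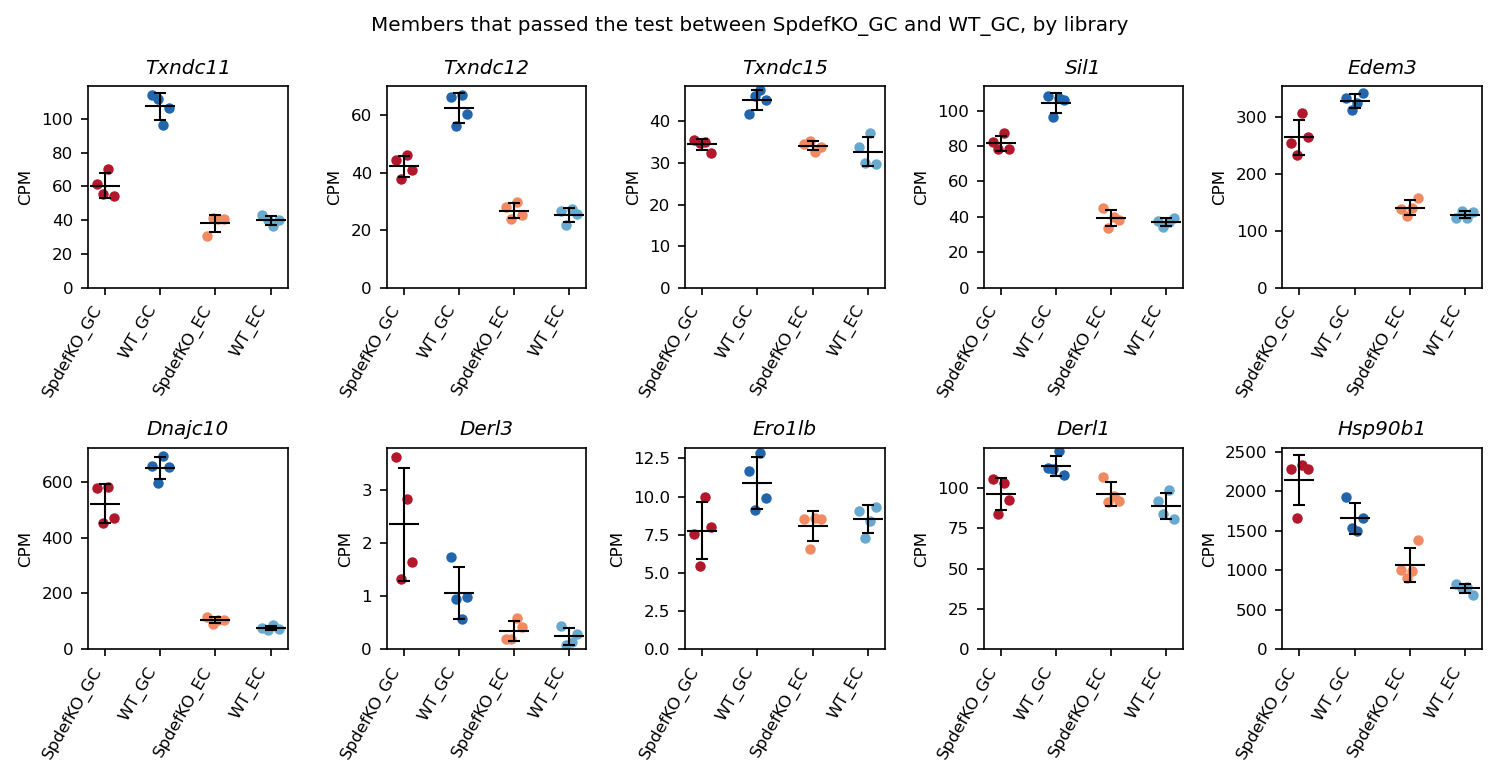
CPM of the 10 members that passed the test between SpdefKO_GC and WT_GC, 1 point per library in each group, with the mean (line) and SD (bar) of 4 libraries and axes from 0. The SpdefKO_GC points of Txndc11 (54.1–70.5 CPM) lie below those of WT_GC (96.5–114 CPM), while those of Derl3 and Hsp90b1 overlap with WT_GC.

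Of the 8 members without overlap and lower in SpdefKO_GC (against 13.6% of all tested genes), 7 passed the test and Qsox1 did not. No member was without overlap in the other direction, against 11.6% of all tested genes. Calls of Txndc11, Txndc12, Txndc15, Sil1 and Edem3 stood under all 7 alternative settings and without each library.

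Libraries of SpdefKO_GC were not alike in this module. Relative to the WT_GC mean, the median log2 difference over the 42 members was -0.30 in SpdefKO_GC library 5 and -0.18 in library 19, with 33 members below the mean in each. It was -0.004 in library 3 and 0.004 in library 7. The 4 WT_GC libraries lay between -0.10 and 0.08. The same measure was not taken over all tested genes, so a shift of the module and one of the whole library cannot be told apart. After Derl3, the members with the highest coefficient of variation in SpdefKO_GC were Creld2, Sdf2l1, Hspa13 and Hyou1, which are named here for that spread. Creld2, a stress-inducible ER protein, had 100, 49.6, 99.6 and 56.6 CPM in SpdefKO_GC libraries 3, 5, 7 and 19, against 103, 69.7, 94.8 and 78.7 CPM in WT_GC. Sdf2l1, a partner of the co-chaperone Dnajb11, had 107, 51.4, 99.5 and 65.6 CPM in SpdefKO_GC, against 83.9, 64.2, 82.9 and 67 CPM in WT_GC. In both genes libraries 5 and 19 were low and libraries 3 and 7 high.

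Hspa13 had 65.5, 40.0, 85.5 and 52.8 CPM in SpdefKO_GC, against 80.4, 72.1, 83.0 and 68.0 CPM in WT_GC. Hyou1 had 605, 413, 677 and 422 CPM in SpdefKO_GC, against 611, 443, 495 and 493 CPM in WT_GC. In both, libraries 3 and 7 were again high and libraries 5 and 19 low, and their neighbours in SpdefKO_EC were ordered alike. Hspa13 had 55.0, 38.8, 52.3 and 46.7 CPM in SpdefKO_EC libraries 4, 6, 8 and 20. Hyou1 had 166, 131, 194 and 141 CPM in these libraries. The coefficient of variation was larger in SpdefKO_GC than in WT_GC for 34 of 42 members, with medians of 11.4% in SpdefKO_GC and 7.42% in WT_GC. Over all tested genes the median was larger in SpdefKO_GC as well, 11.5% against 8.62% in WT_GC, so a larger spread was not particular to the members. The share of all tested genes with a larger coefficient in SpdefKO_GC was not counted. The summed level of 8 immediate-early and heat shock genes that tissue dissociation can induce was 6782, 7951, 7825 and 8761 CPM in SpdefKO_GC libraries 3, 5, 7 and 19, and 5556–9697 CPM in WT_GC. Of these genes 2 rose and 1 fell in SpdefKO_GC. The heat shock genes Hspa1a, with 343–532 CPM in SpdefKO_GC and 254–291 CPM in WT_GC, and Hspa1b, with 531–793 CPM in SpdefKO_GC and 429–512 CPM in WT_GC, rose without overlap, and Dusp1 fell. Their part in the result was not tested.

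**Figure D3:**
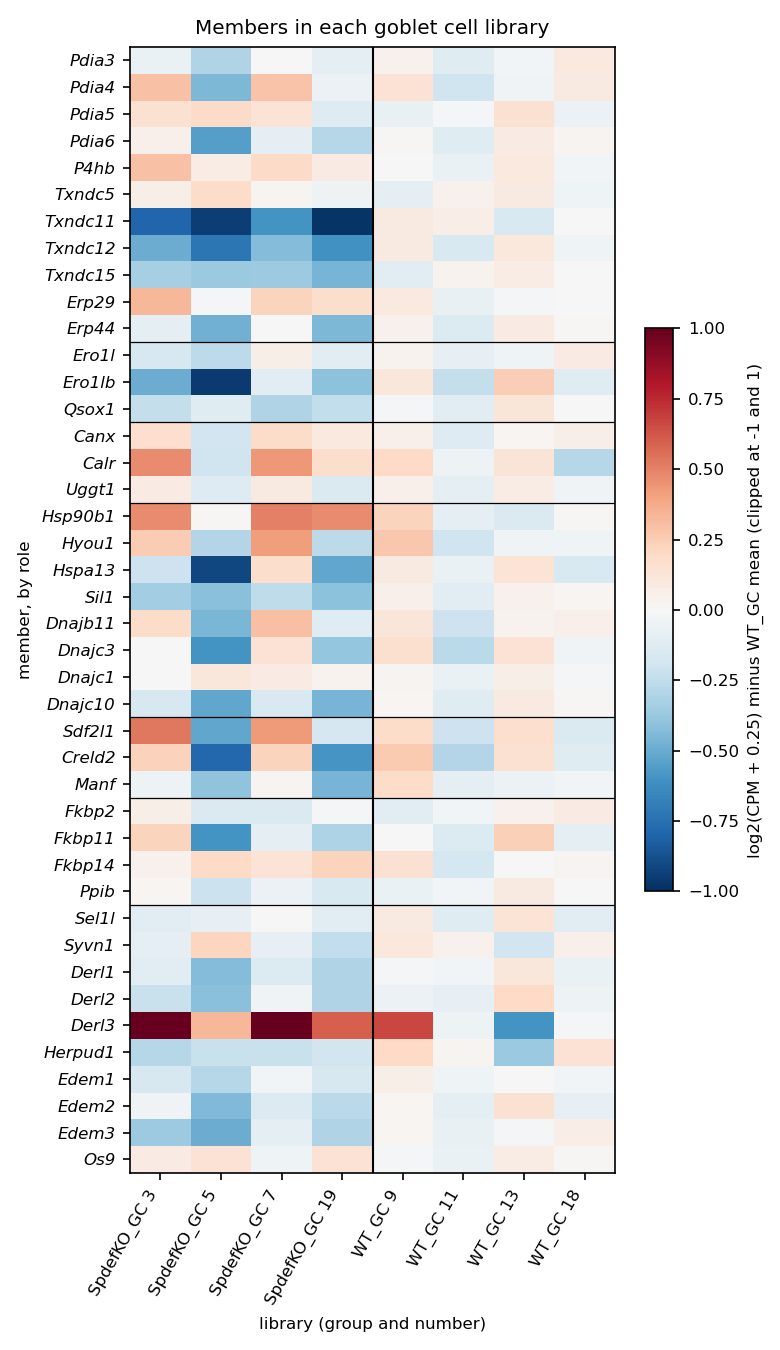
Log2(CPM + 0.25) of each member (rows, by role) minus its WT_GC mean, in each goblet cell library (columns, SpdefKO_GC left of WT_GC); red is above and blue below the WT_GC mean. Libraries 5 and 19 are mostly blue, with 33 of 42 members below the mean in each. The share of all tested genes below the mean was not counted. The rows of Txndc11, Txndc12, Txndc15 and Sil1 are blue in all 4 SpdefKO_GC libraries.

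**Figure D4:**
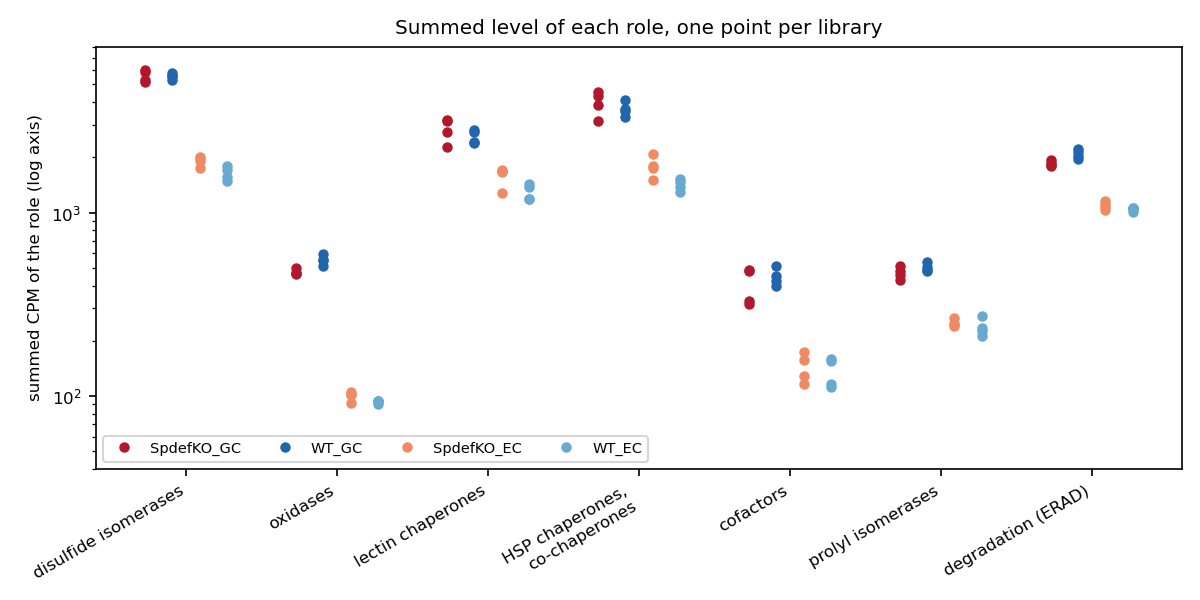
Summed CPM of the members of each role (log axis), 1 point per library, with the groups in the order SpdefKO_GC, WT_GC, SpdefKO_EC and WT_EC. The disulfide isomerases summed to 5180–6022 CPM in SpdefKO_GC and 5284–5770 CPM in WT_GC, and the ERAD factors to 1787–1924 CPM in SpdefKO_GC and 1962–2227 CPM in WT_GC.

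Summed by role, the ERAD factors and the oxidases were the roles whose goblet cell libraries did not overlap between genotypes. ERAD factors summed to 1848 ± 57.6 CPM in SpdefKO_GC and 2096 ± 117 CPM in WT_GC, and the oxidases to 473 ± 15.7 CPM in SpdefKO_GC and 551 ± 33.4 CPM in WT_GC (SD, n = 4 each). Most of the oxidase sum was Qsox1. These sums were not tested and follow their most abundant members.

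Markers of goblet cells and of other cells also differed between these groups. Of the 8 goblet markers 3 were higher and 2 lower in SpdefKO_GC, with log2 changes of -0.81 to 1.08. Their summed levels, 47679–61429 CPM in SpdefKO_GC and 43110–49248 CPM in WT_GC, overlapped. Of the enteroendocrine markers 8 of 8 were higher in SpdefKO_GC, with a summed level of 206–315 CPM in SpdefKO_GC and 87.2–124 CPM in WT_GC, and of the absorptive markers 5 of 7 tested, with 347–534 CPM in SpdefKO_GC and 231–338 CPM in WT_GC. Of the cycling markers 2 of 6 were higher, with 1208–1910 CPM in SpdefKO_GC and 782–1100 CPM in WT_GC. Stromal markers (1 of 3 tested higher) summed to 7.77–10.1 CPM in SpdefKO_GC and 2.54–3.20 CPM in WT_GC, and myeloid markers (2 of 5 tested higher) to 46.2–54.0 CPM in SpdefKO_GC and 39.0–42.8 CPM in WT_GC. The part of these cells in the result was not tested. Several members, among them Fkbp11 and Derl3, are also known from plasma cells. The plasma cell markers Mzb1 and Tnfrsf17 had no count in any goblet cell library, and Igj was at or under 0.0889 CPM in each. The summed 10 plasma and B cell markers, 130–162 CPM in SpdefKO_GC and 128–143 CPM in WT_GC, were nearly all Sdc1, which epithelial cells express as well.

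SpdefKO_GC was then compared with SpdefKO_EC. Of the 42 members, 36 rose and 1 fell, against 28.0% and 28.4% of all tested genes, and 22 were at least 2-fold higher, against 8.83%. Goblet cell libraries lay above all SpdefKO_EC libraries in 33 members and below them in 1, against 23.5% and 24.5% of all tested genes. The median log2 change was 1.01 over the members and 0.03 over all tested genes. By another scaling of the libraries, upper-quartile factors or plain totals, 60.9% or 61.9% of all calls in this comparison were increases, against 49.7% by TMM. Each group of libraries enters more than 1 comparison, so their values are not independent. Qsox1 had 405, 441, 388 and 405 CPM in SpdefKO_GC, against 16.1, 17.9, 12.5 and 14.7 CPM in SpdefKO_EC (log2 4.74 ± 0.11). Changes of the other strongly raised members were 3.52 ± 0.18 for Fkbp11, 3.06 ± 0.09 for Txndc5, 2.94 ± 0.11 for Pdia5, 2.77 ± 0.46 for Derl3, 2.32 ± 0.10 for Dnajc10, 1.65 ± 0.14 for Pdia6 and 1.52 ± 0.13 for Herpud1.

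Ero1l fell between these groups. Ero1l had 54.3, 50.4, 63.0 and 55.9 CPM in SpdefKO_GC, against 77.5, 66.5, 84.1 and 77.7 CPM in SpdefKO_EC, without overlap (log2 -0.45 ± 0.08, adjusted p = 1.23e-04, edgeR). The members that did not pass were Txndc15 (0.01 ± 0.08), Ero1lb (-0.06 ± 0.16), Hspa13 (0.34 ± 0.17), Derl1 (adjusted p = 0.998, edgeR) and Derl2 (0.15 ± 0.09). Other scalings shifted the median of all genes in this comparison by up to 0.13 on the log2 scale, and Ero1lb and Derl1 then took a positive sign, still without passing, while Hspa13 and Derl2 passed. Hspa13 also passed without SpdefKO_GC library 5. With libraries of neighbouring numbers as a block, both passed as well (adjusted p = 0.00247 for Hspa13 and 0.0465 for Derl2, edgeR).

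In the remaining epithelium fewer members passed between genotypes. Of the 42 members, 6 rose and 1 fell in SpdefKO_EC against WT_EC, where 6.09% and 6.54% of all tested genes did, and 33 members were higher by estimate, against 50.8% of all tested genes. The members that rose were P4hb (log2 0.30 ± 0.08, adjusted p = 0.0164), Pdia3 (0.28 ± 0.08, 0.0202), Pdia5 (0.45 ± 0.11, 0.0109), Ero1l (0.33 ± 0.08, 0.0149), Hsp90b1 (0.47 ± 0.13, 0.0225) and Dnajc10 (0.46 ± 0.10, 0.00495), all by edgeR. The count of members that rose was 3 without SpdefKO_EC library 4 or WT_EC library 12, and 10 without SpdefKO_EC library 6. Calls were lost without SpdefKO_EC library 4 (Pdia3, P4hb and Ero1l), 8 (Ero1l) or 20 (Pdia3 and Hsp90b1), or without WT_EC library 10 (Pdia3 and Ero1l), 12 (Pdia3, P4hb and Hsp90b1) or 17 (P4hb and Hsp90b1), and with plain totals (Pdia3 and P4hb), with adjusted p-values of edgeR up to 0.0815. Dnajc10 had 115, 90.9, 105 and 106 CPM in SpdefKO_EC libraries 4, 6, 8 and 20, against 76.4, 70.0, 85.7 and 71.0 CPM in WT_EC. Its groups did not overlap. Libraries were without overlap in 4 members higher in SpdefKO_EC (Pdia3, P4hb, Hsp90b1 and Dnajc10) and in 1 lower (Qsox1), against 6.94% and 8.38% of all tested genes.

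Qsox1 fell in the same comparison. Qsox1 had 16.1, 17.9, 12.5 and 14.7 CPM in SpdefKO_EC, against 24.4, 19.7, 26.5 and 23.9 CPM in WT_EC, again without overlap (log2 -0.63 ± 0.11, adjusted p = 9.37e-04, edgeR). Calls of Dnajc10, Pdia5 and Qsox1 stood under every alternative setting and without each library. By upper-quartile factors or plain totals, 33.1% or 32.7% of all calls were increases, against 48.3% by TMM. Of the goblet cell markers 4 of 8 were lower in SpdefKO_EC and none was higher, among them Muc2 (log2 -0.78), Fcgbp (-0.62) and Spink4 (-1.09), and their summed levels of 239–304 CPM in SpdefKO_EC and 307–384 CPM in WT_EC did not overlap. Of the absorptive markers 2 of 7 tested were higher and 1 was lower, with 7446–9491 CPM in SpdefKO_EC and 8029–8979 CPM in WT_EC. Of the enteroendocrine markers 5 of 8 and of the tuft cell markers 3 of 4 tested were lower in SpdefKO_EC, with summed levels of 248–414 and 8.44–14.3 CPM in SpdefKO_EC, against 554–748 and 33.6–65.9 CPM in WT_EC. Of the cycling markers 2 of 6 were higher, with 904–1536 CPM in SpdefKO_EC and 658–1002 CPM in WT_EC. Igj, the joining chain of plasma cell antibodies, was the 1 of 2 tested plasma and B cell markers that rose, with 1.59–4.83 CPM in SpdefKO_EC and 0.363–1.91 CPM in WT_EC, and the 10 listed genes summed to 393–517 CPM in SpdefKO_EC and 357–457 CPM in WT_EC, again mostly Sdc1. Of the 8 dissociation genes Hspa1a (log2 0.85) and Hspa1b (0.72) rose, and the list summed to 9764–11274 CPM in SpdefKO_EC and 8327–11804 CPM in WT_EC. The part of these cells and genes in the results was not tested.

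**Figure D5:**
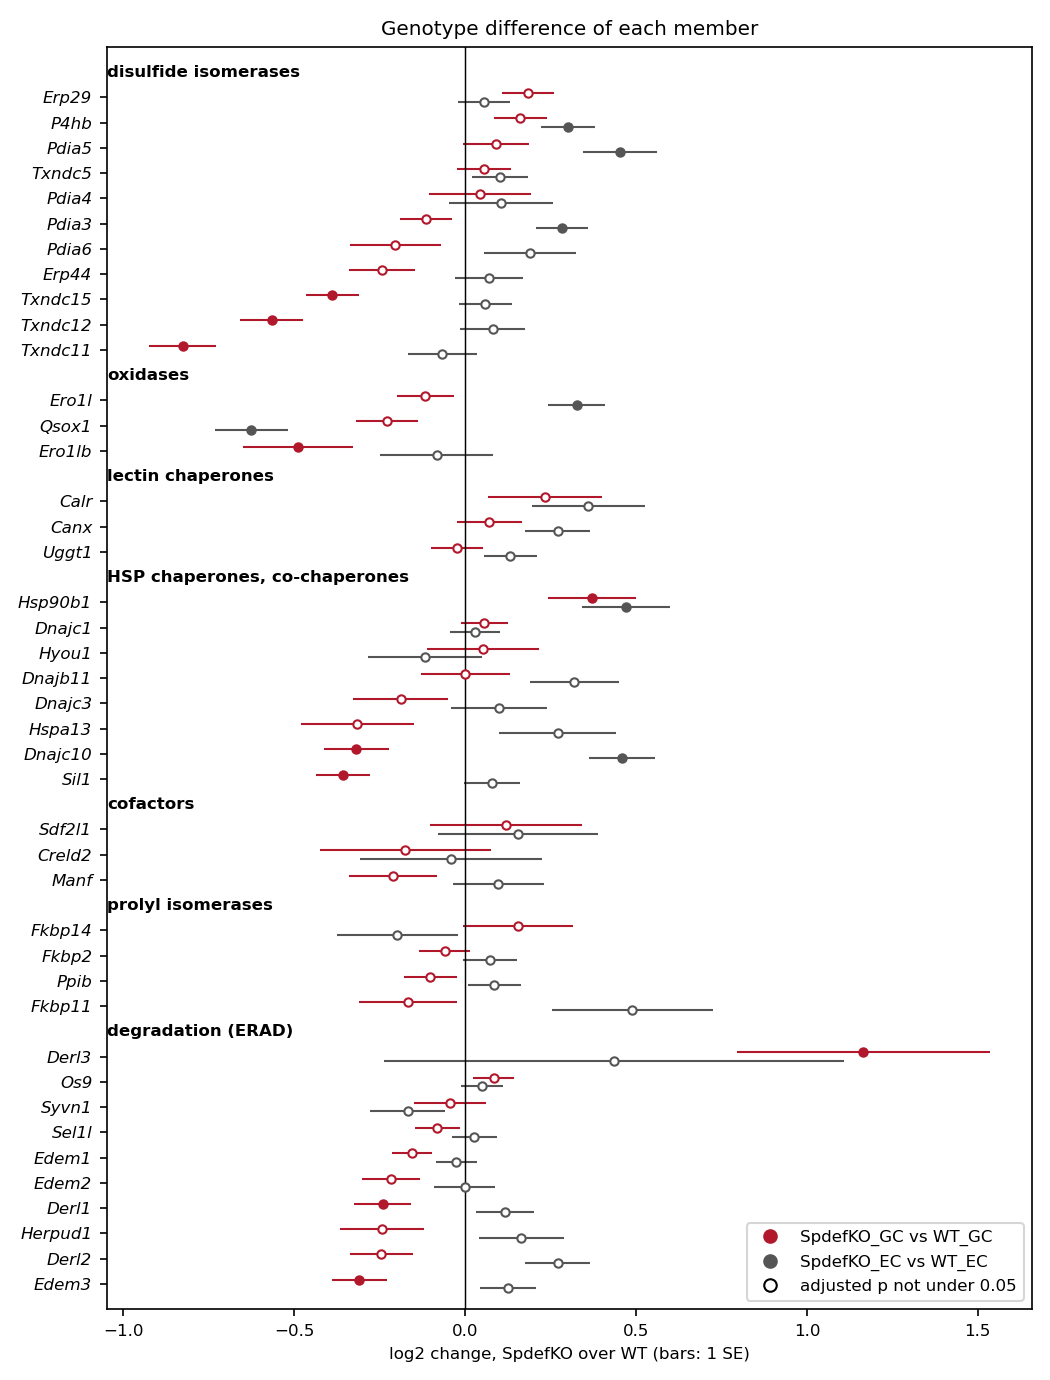
Log2 change of each member between SpdefKO and WT (horizontal axis), in goblet cells (red) and in the remaining epithelium (grey), grouped by role; bars are 1 SE and open points did not pass the test. Dnajc10 lies at -0.32 in goblet cells and 0.46 in the remaining epithelium, and Hsp90b1 to the right in both, at 0.37 and 0.47.

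The interaction tests whether the genotype difference in goblet cells differs from that in the remaining epithelium. It was negative and passed in 9 of 42 members (21.4%), against 4.65% of all tested genes. It was positive and passed in no member by edgeR and limma-voom and in 1, Qsox1, by DESeq2, with 1 at an unadjusted p under 0.05 by each, against 4.88% of all tested genes by edgeR. By plain totals 66.1% of all calls were positive, against 51.2% by TMM. By estimate 34 members were below 0, against 52.6% of all tested genes. The median over the members was -0.21, and -0.02 over all tested genes. Dnajc10 had the strongest value (-0.78 ± 0.14, adjusted p = 0.00127, edgeR), since it fell in SpdefKO_GC and rose in SpdefKO_EC. Txndc11 (-0.76 ± 0.14, 0.00219), Txndc12 (-0.65 ± 0.13, 0.00461) and Txndc15 (-0.45 ± 0.11, 0.0140) had fallen in goblet cells and did not pass in the remaining epithelium. With libraries of neighbouring numbers as a block, the interaction was negative in 19 members, against 13% of all tested genes, and positive in 1, Qsox1 (0.40 ± 0.10, adjusted p = 0.00404, edgeR), against 12.8%. The 9 members passed there too, and the 10 further ones were Pdia5, Pdia6, Erp44, Hspa13, Dnajb11, Dnajc3, Manf, Fkbp11, Derl1 and Herpud1, with changes between -0.66 and -0.30.

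The same held for Sil1 (-0.44 ± 0.11, adjusted p = 0.0213, edgeR) and Edem3 (-0.44 ± 0.12, 0.0224). Pdia3 (-0.40 ± 0.11, 0.0253) and Ero1l (-0.44 ± 0.12, 0.0226) had risen in SpdefKO_EC and did not pass in goblet cells. Derl2 passed in neither genotype comparison but in the interaction (-0.52 ± 0.13, 0.0194). Tested genes overlap Pdia3 and Derl2 on the opposite strand, so their values are uncertain. Derl2 had 46.3, 40.4, 52.7 and 43.8 CPM in SpdefKO_GC, against 51.9, 51.1, 62.0 and 52.1 CPM in WT_GC, and 44.9, 36.7, 41.0 and 42.5 CPM in SpdefKO_EC, against 35.1, 32.9, 37.5 and 31.2 CPM in WT_EC. Calls of Dnajc10, Txndc11, Txndc12 and Txndc15 stood under every alternative setting and without each library. Pdia3, Ero1l and Edem3 each lost the call without any 1 of SpdefKO_GC libraries 5 and 19, WT_GC library 18, SpdefKO_EC libraries 4 and 20 and WT_EC library 10. Ero1l and Edem3 also lost it without SpdefKO_GC library 3, Pdia3 without WT_EC library 12 or 17 and with plain totals, Ero1l without WT_EC library 17 and Edem3 without WT_EC library 14. Sil1 lost it without SpdefKO_GC library 5 or 19, SpdefKO_EC library 4 or WT_EC library 12, and Derl2 without SpdefKO_EC library 4 or WT_EC library 17. The adjusted p-values of edgeR in these fits reached 0.0743. The count of members that passed below 0 was 4 without SpdefKO_EC library 4 and 5 without SpdefKO_GC library 5 or 19.

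Members with and without ERSE in the promoter window are set side by side as counts. In WT_GC against WT_EC 8 of 9 members with ERSE rose (median log2 1.26), and so did 26 of 27 members without it (median 1.30). In SpdefKO_GC against WT_GC, 2 of the 9 with ERSE rose (Hsp90b1 and Derl3) and 1 fell (Ero1lb), while among the 27 without it 5 fell, against 10.4% of all tested genes higher and 11% lower. Each of the 3 calls among members with ERSE was lost when single libraries were left out, and these counts were not tested.

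Beyond the module, 26 of 31 further folding genes, 34 of 35 further ERAD genes and 16 regulators of the unfolded protein response were tested. In SpdefKO_GC against WT_GC, 6 folding genes fell and 1 rose (median log2 -0.14), 5 ERAD genes fell and 2 rose (-0.05), and 3 regulators fell and 2 rose (-0.10). Of all tested genes 11% fell and 10.4% rose, and the counts were not tested against these shares. Ppic, the prolyl isomerase cyclophilin C and a relative of the member Ppib, had 1.49, 1.81, 1.70 and 2.27 CPM in SpdefKO_GC, against 12.1, 9.26, 9.91 and 14.1 CPM in WT_GC. Its groups were far apart (log2 -2.64 ± 0.20, adjusted p = 2.39e-08, edgeR), while Ppib did not pass (log2 -0.10 ± 0.08). Vkorc1, the vitamin K reductase of the ER (-0.48 ± 0.11), Cnpy2 (-0.34 ± 0.09) and Tor1b, an ATPase of the ER lumen (-0.22 ± 0.06), fell as well.

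Of the ERAD genes, the membrane protease Rhbdd1 (-0.33 ± 0.09) fell, and the shuttle factor Ubqln2 (0.39 ± 0.08) and the deubiquitinase Yod1 (0.31 ± 0.09) rose. The regulator with the strongest change was Creb3l4, a membrane-bound transcription factor of the ER, with 8.49, 9.24, 6.85 and 7.32 CPM in SpdefKO_GC, against 199, 190, 205 and 183 CPM in WT_GC (log2 -4.60 ± 0.19, adjusted p = 3.11e-11, edgeR). The stress sensors Ern1, Eif2ak3 and Ern2 differed in direction. Atf6, a further sensor, had 145, 147, 163 and 147 CPM in SpdefKO_GC, against 150, 137, 138 and 151 CPM in WT_GC, with overlapping groups. Ern1, the general sensor, rose (0.44 ± 0.10), with 96.7 ± 16.4 CPM in SpdefKO_GC and 71.5 ± 4.82 CPM in WT_GC (SD, n = 4 each). Eif2ak3, the sensor kinase PERK, fell (-0.32 ± 0.10), with 221 ± 20.6 CPM in SpdefKO_GC and 276 ± 43.3 CPM in WT_GC. Its groups overlapped, since SpdefKO_GC library 7 (245 CPM) lay above WT_GC library 13 (223 CPM). Ern2, the form of Ern1 found in mucous epithelia, fell as well (-0.81 ± 0.09), with 243 ± 30.7 CPM in SpdefKO_GC and 426 ± 17.4 CPM in WT_GC. The alternative fits were not examined for these sensors.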

How the data were processed

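Gene counts of 16 libraries were used, 4 per group. The authors deposited whole-number counts per gene, and a table of normalized values (signal) that kept a constant ratio to the counts and served to restore 27 gene symbols turned into dates. Libraries were paired-end and made with a stranded kit after ribosomal RNA depletion, per the labels' protocols. STAR 2.4.0f, HTSeq 0.6.1p1, DESeq2 1.14, FastQC 0.11.2 and mm10 are named in the submitters' processing notes; of the strand setting and the annotation, the sources used here say nothing. Left out were 3 entries for reads without a gene, with 47.1–54.7% of counts.

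All 16 libraries were fitted in 1 model with edgeR 4.0.16 (R 4.3.3, filterByExpr, TMM, robust quasi-likelihood test), tested on simulated data first, and p-values were Benjamini-Hochberg adjusted over 12915 genes with a threshold of 0.05. In the simulated data, 64% of log2 changes of 0.5 in size between SpdefKO_GC and WT_GC were recovered, and 99% of those of 1. A member that did not pass may therefore still differ by a small amount. Each SE was taken as the size of the log2 change over the root of F. With 10085637–17111987 gene counts per library, the biological coefficient of variation was 11.7%. No 2 libraries agreed within counting noise (chi-square per degree of freedom 4.53–34.5). Alternatives were DESeq2 size factors, upper-quartile factors, plain totals, no filter, DESeq2 1.42.0, limma-voom (3.58.1), a fit of only the groups compared and each library left out. After the data were seen, a fit with goblet and remaining libraries of neighbouring numbers as a block was added for the comparisons between cell fractions and the interaction; genotype differences cannot be estimated in it. Over all tested genes, the deviations of neighbours from their group means correlated at 0.125–0.613 in the 8 pairs, and 8 of 8 goblet cell libraries correlated best with their neighbour, which is a hint from the data, not a label. Gene lengths and overlaps came from GENCODE (GRCm38), promoters from RefSeq. All 42 members are accounted for. Those past the threshold between goblet cell groups, the 3 most abundant that were not, and the strongest or unpassed members elsewhere were named. The members and lists were chosen with earlier results of these data known.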

Additional observations from a re-analysis of the deposited data

Results flagged for a closer look

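In 5 of 168 groups of 4 libraries, 1 library stood far from the other three by a test of the gap against the range, which chance does in about 1 group in 20. Txndc11 was at 30.8 CPM in SpdefKO_EC library 4, with the nearest library at 40.6 CPM. In SpdefKO_EC library 6, Ero1lb was at 6.59 CPM (nearest 8.54 CPM) and Calr at 469 CPM (nearest 673 CPM). Hsp90b1 was at 1666 CPM in SpdefKO_GC library 5 (nearest 2286 CPM), and Derl2 at 62.0 CPM in WT_GC library 13 (nearest 52.1 CPM).

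The genotype difference in goblet cells differed from that in the remaining epithelium in 9 members by the interaction test. The difference of differences on the log2 scale was -0.78 for Dnajc10, -0.76 for Txndc11, -0.65 for Txndc12, -0.52 for Derl2, -0.45 for Txndc15, -0.44 for Sil1, -0.44 for Edem3, -0.44 for Ero1l and -0.40 for Pdia3.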

How the results depend on the processing

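In SpdefKO_GC against WT_GC, 1 member in place of 2 rose under upper-quartile factors, without the filter and with limma-voom. Leaving out 1 library in turn gave 0–3 members that rose and 5–11 that fell, with 5 without SpdefKO_GC library 5 or 19 or WT_GC library 18. Such fits gave 38–39 increases and 0 decreases for WT_GC against WT_EC, 33–37 and 1 for SpdefKO_GC against SpdefKO_EC, 3–10 and 1 for SpdefKO_EC against WT_EC, and 0–1 positive and 4–10 negative interactions. With DESeq2, 1 interaction was positive in place of 0. In the 250 bases before the start, ERSE-II was found in 1 member in place of 2.

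Changes near 0 took the other sign without passing. Ero1l in WT_GC against WT_EC was at 0.0763 with upper-quartile factors and 0.0711 with plain totals, and between -0.0665 and 0.0227 with 1 library left out. In SpdefKO_GC against SpdefKO_EC, Ero1lb was at 0.0593 and 0.0735 under these scalings and between -0.2073 and 0.0795 with 1 library left out. Derl1 was at 0.1141 and 0.1282, at 0.0022 without the filter, at 0.0010 with only the groups compared, and between -0.0577 and 0.0595 with 1 library left out. Txndc15 was between -0.0136 and 0.0396 in such fits. The cause was not tested. No 2 groups share a library number. With neighbouring numbers as a block, chosen after seeing the data, 19 interactions in place of 9 were negative and 1 in place of 0 was positive.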
